A study of Mus musculus with 48 samples.

Results

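The late step of the response to C/EBPα was followed on 6 of the 48 arrays of the series, 3 from the WT C/EBPα-ER line at 6 h after 4-hydroxytamoxifen (4-HT) and 3 from the same line at 12 h. The 3 arrays of that line at 9 h served as the intermediate point and its 3 arrays at 0 h as the start. All lines were 32D-BCR/ABL cells, a mouse myeloid progenitor line that expresses p210 BCR/ABL, the fusion kinase of chronic myeloid leukaemia. Each line had been transduced with a MigRI retrovirus. The WT line carried C/EBPα joined to the ligand-binding region of an estrogen receptor (ER). The other 3 lines carried the empty MigRI vector, K298E C/EBPα-ER, described in the labels as unable to bind DNA, or Δ(177-191) C/EBPα-ER, described as deficient in its interaction with CDK2 and CDK4. Cells of every line received 4-HT, so the vector cells at 6 h and 12 h share the drug and the time in culture with the WT cells. Total RNA came from 3 separate experiments per the labels, which do not state whether a line is 1 clone, and was hybridised to Affymetrix MOE430_2 arrays. Each of the 4 lines has 3 arrays at each of 4 times.

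C/EBPα is a leucine zipper transcription factor that commits myeloid progenitors to the granulocyte lineage and restrains their division. Fused to the estrogen receptor domain it stays inactive until 4-HT releases it, so that its targets can be followed from a defined start. Granulocyte precursors make the proteins of the primary granules, such as myeloperoxidase, before those of the later granules, and lose cytokine receptors and growth programs as they mature.

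Values are the deposited MAS5 signals, which are relative brightness, and every change below is a difference of mean log2(signal + 3) between groups of 3 arrays. Signal levels of different genes cannot be set against each other, since probes differ in brightness. A change passed the test at an adjusted p below 0.05 in a limma fit of all 48 arrays. Of 27167 probe sets tested, 12800 genes had a probe set of their own, and the brightest one stands for the gene. The mean signal of the 6 arrays compared ranged from 157.0 to 181.9 and the brightest was the first WT array at 6 h, which also had the highest 3′ to 5′ ratio of actin, 1.48 against 1.06 to 1.35 on the other 11 WT arrays. Esr1, whose probe set reads the receptor part of the fusion, had signals of 2378, 2241 and 2484 in WT cells at 6 h and of 25, 12 and 17 in vector cells. Of the 8 markers chosen for a 32D progenitor, Ptprc, Il3ra, Csf2rb, Myb and Spi1 were bright in WT cells. Kit at 1 to 26 and Cd34 at 1 to 16 were near the low end of the scale on all WT arrays. Mpo was dim at 0 h and 6 h, at 14 to 32, and rose later. The summed signal of the 5 fibroblast markers was 30 to 83 and that of 5 lymphoid markers 17 to 65 over the 12 WT arrays.

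Between 6 h and 12 h, 1119 genes rose in WT cells (8.74% of the genes tested) and 832 fell (6.5%). The typical change was small, with a median of 0.44 on the log2 scale among the rises and 0.46 among the falls. Large changes were mostly falls, since 93 genes fell and 42 rose by at least 2-fold, and 11 fell and 1 rose by at least 4-fold. The 3 signals at 6 h did not overlap with the 3 at 12 h for 1073 of the rises and 811 of the falls, against 30.5% of all genes tested. The calls rest on these same arrays, so this describes the called genes and is no separate support. Without the first WT array at 6 h, 852 genes rose and 624 fell. The balance of rises and falls rests on the scale: on the deposited scale 57.4% of the calls were rises and the median change of all genes was -0.003, whereas after centring each array on its own median 685 genes rose and 130 fell (84.1% rises) and the median change was 0.14. In RNA from whole cultures, fewer cells of a type and less RNA per cell cannot be told apart.

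Most of this step lay before 9 h. From 6 h to 9 h 1192 genes rose (9.31%) and 770 fell (6.02%), a comparison that shares the 6 h arrays with the one above. From 9 h to 12 h 5 genes rose (0.0391%) and 2 fell (0.0156%), namely Smim4, Pspc1, Cenpa, Cirbp and Hs3st3b1 upwards and Flywch2 and Grb10 downwards. In probe sets the count from 6 h to 12 h was 1728 higher (6.36%) and 1404 lower (5.17%).

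Single genes are ranked below among the 1801 changed genes (1042 rises and 759 falls) whose mean signal reached 50 at 6 h or 12 h and whose 3 arrays at each time did not overlap. This leaves out 20 dimmer or overlapping genes with a rise above 1.05, the lowest of the 15 ranked first, the largest at 1.98, and 20 with a fall beyond -1.49, the largest at -2.13. On the scale of log2(signal + 3), Mpo and Flywch2 had the largest changes with or without these conditions.

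Where a gene stood relative to its start was read from 9 h against 0 h, which shares no array with 12 h against 6 h. As 9 h lies within the step, most of which came before it, this reading favours the same direction. At 9 h 1903 genes were above 0 h (14.9%) and 1999 below (15.6%). Among the 1119 rises, 406 were also above their 0 h level at 9 h, 182 were still below it and 531 did not differ from it. Among the 832 falls, 358 were below their 0 h level at 9 h, 153 were still above it and 321 did not differ from it. Genes of the second kind were thus on their way back towards the 0 h level. The direction taken before the step was read from 6 h against 0 h, which shares the 6 h arrays and so favours opposite signs. By it 597 rises and 331 falls went back towards 0 h, and 102 rises and 185 falls continued.

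The upstream sequence of the genes at both ends of the step is shown so that each can be read beside its values. The windows hold the 250 bases before the annotated start in RefSeq (GRCm38.p6), 5′ to 3′ on the gene's strand, in lower case, with capitals for any match to TTNNGNAA, the core of a C/EBP-like site, searched on both strands. Mpo lies at chr11:87793534-87793783 (plus strand), Amdhd2 at chr17:24163734-24163983 (minus strand), Flywch2 at chr17:23786082-23786331 (minus strand) and Tnfrsf9, for the first of its 2 starts, at chr4:150919905-150920154 (plus strand). Clec4d at chr6:123261857-123262106 (plus strand) was added after the matches were counted, as the window with the most.
Mpo: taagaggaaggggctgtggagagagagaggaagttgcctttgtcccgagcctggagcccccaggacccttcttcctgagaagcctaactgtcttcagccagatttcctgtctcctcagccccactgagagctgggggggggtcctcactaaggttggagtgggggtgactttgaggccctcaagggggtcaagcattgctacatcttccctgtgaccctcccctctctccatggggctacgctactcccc
Amdhd2: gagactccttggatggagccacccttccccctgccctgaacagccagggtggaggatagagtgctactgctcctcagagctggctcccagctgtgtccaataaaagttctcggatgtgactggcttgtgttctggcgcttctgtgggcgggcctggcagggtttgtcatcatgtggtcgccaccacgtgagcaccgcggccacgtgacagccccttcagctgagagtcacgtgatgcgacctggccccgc
Flywch2: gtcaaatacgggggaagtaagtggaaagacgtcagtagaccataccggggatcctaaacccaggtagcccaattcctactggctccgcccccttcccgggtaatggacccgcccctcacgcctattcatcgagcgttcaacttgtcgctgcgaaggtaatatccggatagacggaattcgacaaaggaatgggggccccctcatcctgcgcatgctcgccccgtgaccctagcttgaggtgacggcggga
Tnfrsf9: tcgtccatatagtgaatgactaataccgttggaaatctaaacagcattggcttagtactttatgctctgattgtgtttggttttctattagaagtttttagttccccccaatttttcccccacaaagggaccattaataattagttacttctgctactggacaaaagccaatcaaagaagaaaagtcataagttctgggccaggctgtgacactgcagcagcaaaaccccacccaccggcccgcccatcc
Clec4d: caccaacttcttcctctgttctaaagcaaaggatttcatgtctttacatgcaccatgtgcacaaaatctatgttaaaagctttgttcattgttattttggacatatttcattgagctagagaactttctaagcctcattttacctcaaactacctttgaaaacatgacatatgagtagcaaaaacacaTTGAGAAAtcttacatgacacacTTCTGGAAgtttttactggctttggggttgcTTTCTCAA
The windows of the 2 top-ranked rises and the 2 top-ranked falls held no match, and the Clec4d window held 3, which begin 62, 39 and 8 bases before the start. A match was present in 4 of the 12 windows found for the 15 top-ranked rises (33.3%), in 5 of the 14 found for the 15 top-ranked falls (35.7%) and in 2945 of 10329 windows of tested genes (28.5%). No match in a window says only that these letters are absent from it.

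Mpo, which encodes myeloperoxidase of the primary granules, had the largest rise. Its signal was 18, 14 and 17 at 0 h, 32, 28 and 22 at 6 h, 148, 157 and 175 at 9 h, and 366, 388 and 401 at 12 h. The arrays of each time from 6 h on stood clear of those before, although the step from 9 h to 12 h alone did not pass (adjusted p = 0.3967). The rise from 6 h was 12.9-fold (log2 3.69, SE 0.40, adjusted p = 4.954e-09). In vector cells all signals at 6 h and 12 h lay between 7 and 23, and the late step of the 2 lines differed by 4.03 (adjusted p = 1.565e-05). It also exceeded that in K298E cells by 3.34 (adjusted p = 0.0001545) and that in Δ(177-191) cells by 2.54 (adjusted p = 0.002422).

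No other primary granule gene rose past the threshold. Ctsg, which encodes cathepsin G, had 72, 55 and 67 at 6 h and 142, 155 and 133 at 12 h in WT cells, so that the groups did not overlap, but its change of 1.12 missed the threshold (adjusted p = 0.07841). Its signals in vector cells at both times were 1 to 11. Prtn3, which encodes proteinase 3, had 2473, 1836 and 1708 at 6 h and 2646, 2532 and 2491 at 12 h (0.37, adjusted p = 0.06311). These genes were singled out after their values were seen. Of the 12 primary granule genes tested, Mpo rose, and Serpinb1a and Ctsc fell by 0.55 and 0.40. The call for Ctsc was lost in 8 of the alternatives tried (adjusted p up to 0.36). The alternatives leave out 1 or more arrays or change a setting or the probe set.

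**Figure D1:**
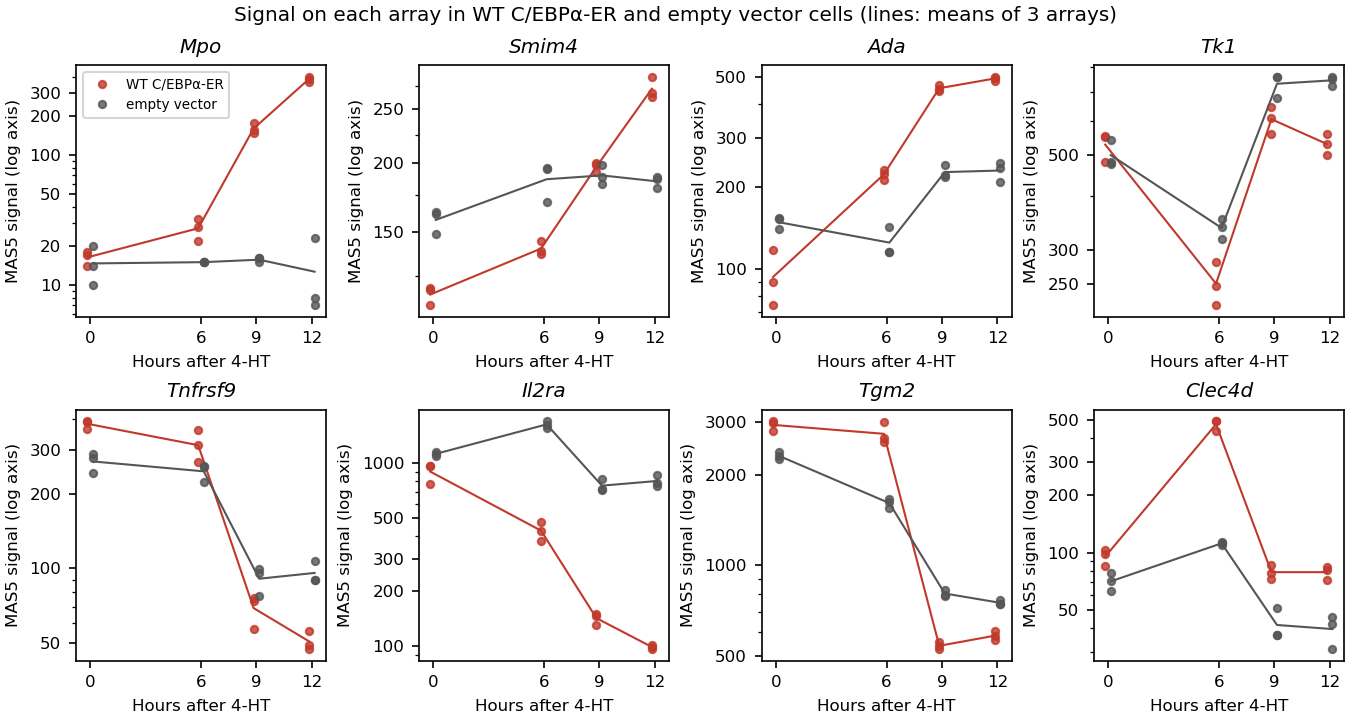
MAS5 signal (log axis) against hours after 4-HT for 8 genes, with a point per array and a line through the means of 3 arrays, in WT C/EBPα-ER (red) and empty vector cells (grey). Mpo and Smim4 went up in WT cells and stayed level in vector cells, Ada and Tk1 went up in both, and Tnfrsf9, Il2ra, Tgm2 and Clec4d went down between 6 h and 9 h in both.

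Enzymes of nucleotide and amino sugar metabolism were among the top-ranked rises. Ada, adenosine deaminase, had 90, 74 and 117 at 0 h, 222, 212 and 230 at 6 h, 470, 452 and 445 at 9 h and 485, 496 and 502 at 12 h. Its gain lay between 0 h and 9 h, and the 6 h and 12 h arrays did not overlap (1.15, SE 0.10, adjusted p = 3.41e-11), and vector cells rose by 0.86. Tk1, the thymidine kinase of S phase, dipped first: 551, 481 and 553 at 0 h were followed by 281, 247 and 223 at 6 h and 559, 531 and 500 at 12 h. Its late rise of 1.08 (adjusted p = 2.336e-13) brought it close to its 0 h signals, and vector cells rose by 1.14. Amdhd2, an enzyme of amino sugar breakdown, took the same course, with 134, 102 and 93 at 0 h, 39, 52 and 18 at 6 h and 100, 86 and 99 at 12 h (1.42, adjusted p = 1.319e-06).

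Cenph, a kinetochore protein, rose beyond its start, from 93, 99 and 127 at 6 h to 257, 286 and 277 at 12 h, against 175, 179 and 165 at 0 h (1.35, adjusted p = 1.728e-10). The remaining 10 of the 15 top-ranked rises lay between 1.05 and 1.25. They were Fam160a2, the mitochondrial dehydrogenase gene Gcdh, the recombination helicase gene Rad54l, Tnfaip2, the clamp loader gene Rfc2, the chromatin reader gene Ing2, the necroptosis effector gene Mlkl, the centrosomal gene Cep128, Nmral1 and the kinesin gene Kif22. For Tnfaip2 another probe set moved by -0.47 without passing the test, and the call for Kif22 was lost in 6 alternatives (adjusted p up to 0.16). Mpo apart, none of the 15 differed in its late step between WT and vector cells.

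Genes that came back part of the way were led by Tnfaip2, an NF-κB target, at 264, 278 and 268 at 0 h, 59, 71 and 83 at 6 h and 147, 157 and 150 at 12 h (1.07). Ing2 returned from 77, 92 and 107 to 180, 210 and 192, against 233, 211 and 211 at 0 h. Pck2, the mitochondrial enzyme that makes phosphoenolpyruvate, lost most of its signal early and regained little of it, with 1208, 1186 and 1122 at 0 h, 173, 160 and 151 at 6 h and 335, 304 and 322 at 12 h (0.98, adjusted p = 5.719e-12). Hspb6, a small heat shock protein gene, and Sertad3 completed the 5 top-ranked returns upwards at 1.02 and 0.95. Returns downwards were led by 6530402F18Rik (-1.07) and Ablim1, which encodes an actin-binding protein. Ablim1 had 359, 365 and 382 at 0 h, 886, 885 and 969 at 6 h and 441, 539 and 475 at 12 h (-0.91). Qtrt1, Polr1b and Dancr followed at -0.73, -0.71 and -0.71. The call for Dancr was lost in 6 alternatives (adjusted p up to 0.26).

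Smim4, which encodes a small membrane protein, rose both from 6 h to 9 h and from 9 h to 12 h. Its signals were 118, 111 and 119 at 0 h, 145, 139 and 137 at 6 h, 193, 198 and 200 at 9 h and 286, 267 and 263 at 12 h. The change from 9 h to 12 h was 0.46 (adjusted p = 0.01321) and that from 6 h was 0.94 (adjusted p = 1.01e-10). Vector cells had 170, 195 and 196 at 6 h and 189, 180 and 187 at 12 h, so the step differed by 0.95 (adjusted p = 3.513e-06). Cirbp, a cold-inducible RNA-binding protein gene, had 254, 276 and 280 at 0 h, 79, 92 and 86 at 6 h, 76, 69 and 65 at 9 h and 112, 124 and 135 at 12 h, and thus turned upwards after 9 h (0.79 from 9 h to 12 h, adjusted p = 2.2e-05). Cenpa, Pspc1 and Hs3st3b1 were also at their lowest at 9 h.

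Cytokine and TNF family receptors were among the top-ranked falls. Tnfrsf9, which encodes the costimulatory receptor 4-1BB, had 393, 389 and 366 at 0 h, 268, 313 and 360 at 6 h, 76, 74 and 57 at 9 h and 47, 49 and 56 at 12 h. The 12 h arrays lay far below all earlier ones except those at 9 h (-2.55, SE 0.13, adjusted p = 6.055e-19). Il2ra, the α chain of the interleukin-2 receptor, was lower at each time than at the one before, going from 967, 966 and 770 at 0 h to 378, 479 and 428 at 6 h, 146, 131 and 150 at 9 h and 102, 99 and 96 at 12 h (-2.07, adjusted p = 4.239e-18). Both fell in vector cells as well, by 1.34 and 1.03, and both fell further in WT cells (difference -1.22 for Tnfrsf9 and -1.05 for Il2ra, adjusted p = 5.564e-05 for each). A dim second probe set of Tnfrsf9, with means of 9.67 and 10.7, did not change (0.20, adjusted p = 0.8826), and another bright one fell by 2.43.

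Of 24 cytokine receptor genes tested, 5 fell and none rose, and their median change was -0.26. In vector cells 3 of them fell and none rose. Il4ra, the interleukin-4 receptor chain, fell by 0.73 and Il18r1, of the interleukin-18 receptor, by 0.69. Among 22 inhibitory and paired myeloid receptor genes 4 fell and none rose, and in vector cells 6 fell and none rose. Of all genes tested 6.5% fell in WT cells and 4.06% in vector cells. Clec4d, a C-type lectin of phagocytes, was among the top-ranked falls after an early peak, with 85, 103 and 98 at 0 h, 435, 493 and 493 at 6 h, 86, 73 and 78 at 9 h and 72, 84 and 81 at 12 h (-2.54, adjusted p = 1.189e-17). It was back at or under its 0 h signals by 9 h. Clec4e, a related lectin, kept part of its early peak: 1112, 1056 and 886 at 6 h became 680, 726 and 696 at 12 h, above 309, 410 and 372 at 0 h (-0.53). The call for Clec4e was lost in 6 alternatives. Another probe set, which is among them, changed by -0.17 (adjusted p = 0.598), and the rest had adjusted p up to 0.21.

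Grb10, an adaptor that restrains receptor tyrosine kinase signalling, stayed level until 6 h and then fell in both intervals. It had 411, 417 and 449 at 0 h, 414, 401 and 426 at 6 h, 122, 134 and 118 at 9 h and 79, 77 and 62 at 12 h (-2.47, SE 0.09, adjusted p = 5.082e-24, and -0.76 from 9 h to 12 h). A dim probe set of Grb10 changed by -0.17 and did not pass. Tgm2, tissue transglutaminase, had 3020, 2971 and 2798 at 0 h, 2997, 2642 and 2569 at 6 h and 602, 580 and 564 at 12 h (-2.22, adjusted p = 5.346e-21), and its 4 other probe sets fell by 2.03 to 2.64. Flywch2 had the largest fall, from 61, 41 and 53 at 6 h to 3, 1 and 1 at 12 h (-3.56), where its signals were at or below 3, the 20th percentile of all signals. Over other settings and left-out arrays its change ranged from -3.76 to -1.31, against -2.27 to -2.09 for Tgm2. Its place as the largest fall thus rests on the setting. Another probe set of Flywch2 fell by 1.85. Vector cells started lower, at 14, 25 and 16, and ended at 2, 2 and 9.

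The rest of the 15 top-ranked falls lay between -2.17 and -1.49. Ctla2b, a cysteine protease inhibitor gene, Avil, an actin-severing protein gene, and Asb2, a ubiquitin ligase adaptor gene, fell by 2.17, 2.09 and 2.03. Atf5, a stress-linked transcription factor gene, fell by 1.75 from 297, 280 and 326 at 6 h to 67, 99 and 99 at 12 h. Myl10, the citrullinating enzyme gene Padi2, Lgals3, which encodes galectin-3, Serpinf1 and Pglyrp2 made up the others. Padi2 and Pglyrp2 had already lost much of their signal by 6 h: Pglyrp2, of the peptidoglycan recognition family, had 471, 358 and 440 at 0 h, 80, 111 and 104 at 6 h and 31, 33 and 34 at 12 h.

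**Figure D2:**
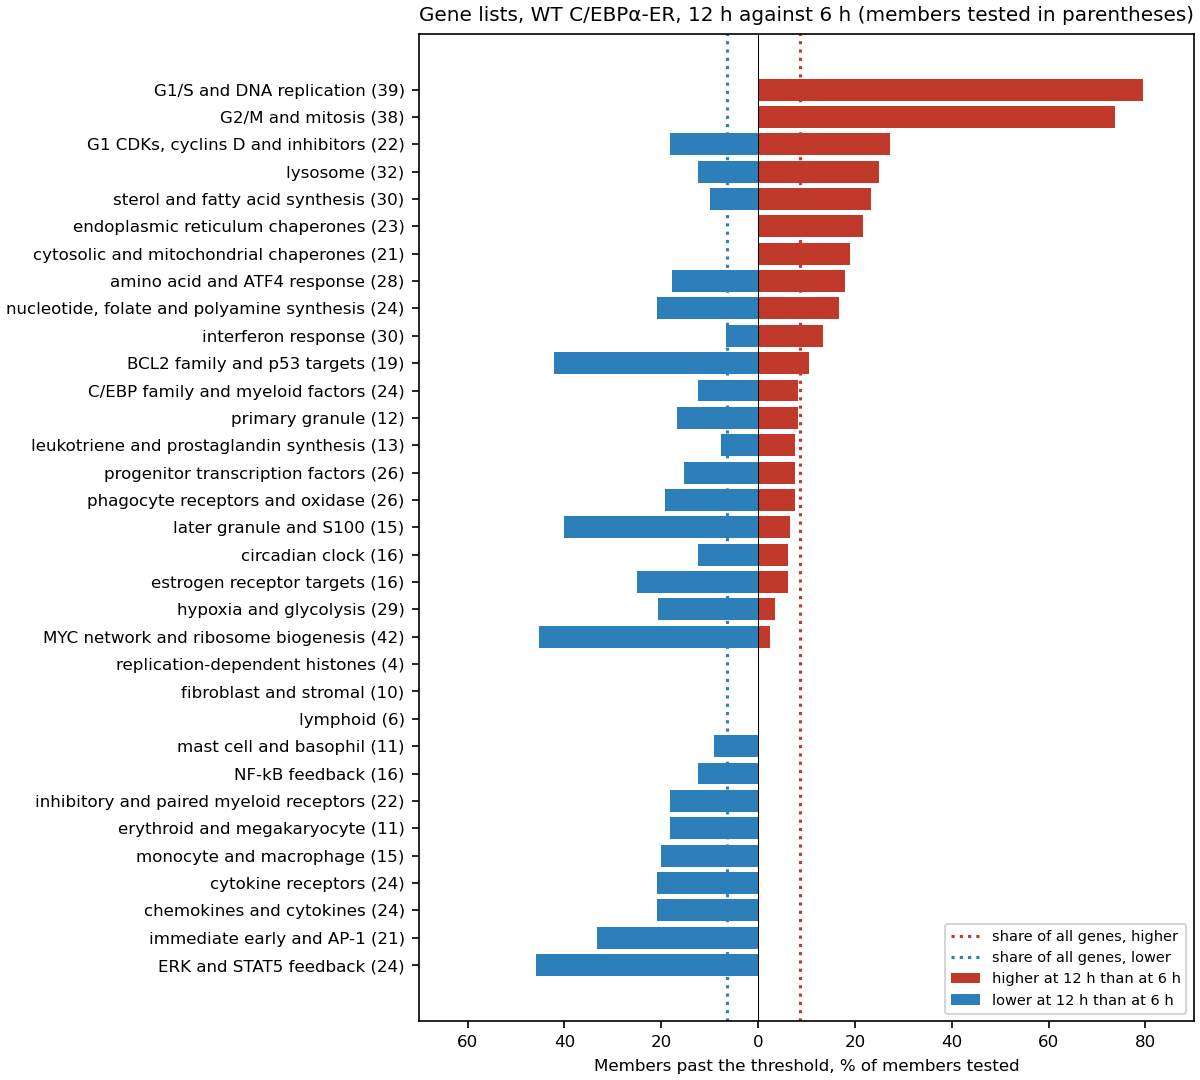
Share of the members tested in each of 33 gene lists that were higher (red, right) or lower (blue, left) at 12 h than at 6 h in WT cells, with dotted lines at the shares of all genes, 8.74% and 6.5%. The replication and mitosis lists stand out to the right and the feedback, ribosome, BCL2 and later granule lists to the left.

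Genes of the cell division cycle moved together. Of 39 genes for the G1/S transition and DNA replication, 31 rose and none fell, with a median change of 0.46 against -0.003 over all genes. Tk1 rose most, E2f8, an E2F family repressor gene, rose by 0.84 from 192, 247 and 209 to 427, 358 and 382, and Lig1, DNA ligase I, rose by 0.80 from 444, 485 and 408 to 803, 822 and 707. The median change of the 39 genes from 0 h was 0.12 at 6 h, 0.56 at 9 h and 0.55 at 12 h. Among vector cells 27 of the 39 rose, the median from 6 h to 12 h was 0.40, and none of the 39 differed between the lines in its late step. In K298E cells 11 rose and in Δ(177-191) cells 4 rose and 1 fell.

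Of 38 genes for G2/M and mitosis, 28 rose and none fell (median 0.39). Cdca3, which triggers mitotic entry, rose by 0.98 from 258, 266 and 274 to 564, 505 and 517, and the mitotic kinase genes Aurkb and Bub1 each rose by 0.69 and 0.68. This list had dipped at 6 h, when 20 members lay below 0 h and 1 above, and its median change from 0 h was 0.06 at 12 h. Vector cells had 21 rises. Median centring left 29 rises in the first list and 19 in the second, and leaving out the first WT array at 6 h left 31 and 23.

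The regulators of G1 split. Of 22 genes tested, 6 rose and 4 fell. Cdk2, which drives entry into S phase, rose from 175, 232 and 206 to 323, 331 and 326 (0.68, adjusted p = 1.39e-07) and Cdk4 from 1520, 1541 and 1565 to 2013, 1886 and 1909 (0.33, adjusted p = 0.00549). Both had dipped by 6 h, Cdk2 by 0.48 and Cdk4 by 0.23, the latter from 1723, 1768 and 1962. Cdkn1a, the inhibitor p21, fell from 2737, 2324 and 2338 to 1818, 1666 and 1751 (-0.50) and Cdk6 fell by 0.38. The stress-response gene Gadd45a rose by 0.48 and its relative Gadd45g fell by 0.45, and these calls were lost in 11 and 9 alternatives, at adjusted p up to 0.41 and 0.43. None of the 22 differed between WT and vector cells in its late step.

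Genes of the MYC network and of ribosome biogenesis came down from an early peak. Of 42 tested, 34 were above 0 h at 6 h and 2 below, against 13.5% and 19% of all genes, and from 6 h to 12 h 19 fell and 1 rose (median -0.25). Polr1b, a subunit of RNA polymerase I, fell by 0.71 from 269, 282 and 333 to 169, 198 and 170. Nop16 and Rrp1b, nucleolar proteins, fell by 0.64 and 0.62, though 2 other probe sets of Rrp1b changed by only -0.14 and -0.16 and did not pass, and Mxi1, which encodes a MYC antagonist, rose by 0.32. The median of the list stayed 0.49 above 0 h at 12 h. Myc itself had 1119, 1198 and 1243 at 0 h, 1714, 1974 and 2120 at 6 h and 1409, 1320 and 1455 at 12 h (-0.47, adjusted p = 0.0003585). Vector cells had 17 falls and 1 rise in the list, and none of the 42 differed between the lines. With median centring 3 members fell and 1 rose.

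**Figure D3:**
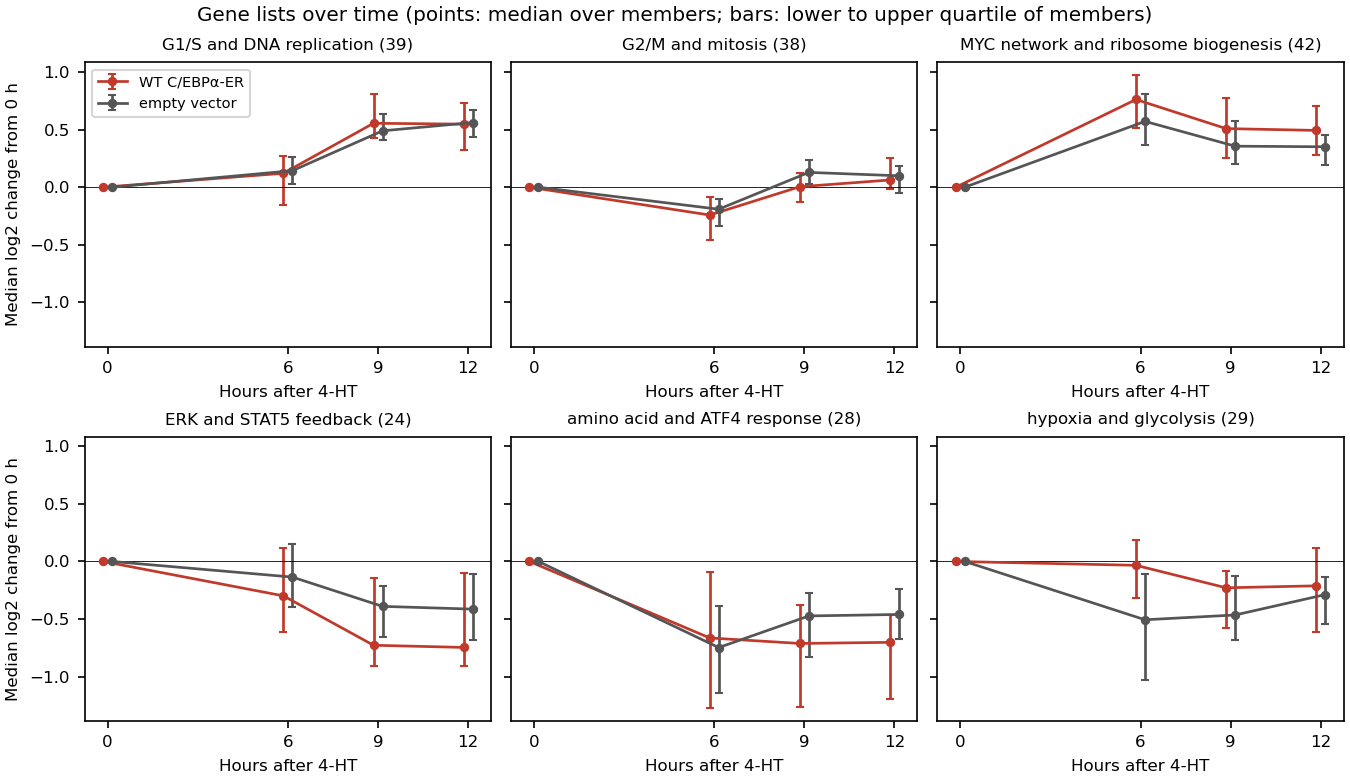
Median change from 0 h over the members of 6 gene lists (log2 scale, bars from the lower to the upper quartile of members) at 6, 9 and 12 h in WT (red) and vector cells (grey). Both lines ran close together for replication, mitosis and ribosome genes, whereas the amino acid list went up after 6 h in vector cells and stayed near -0.70 in WT cells.

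Targets of ERK and STAT5, pathways that BCR/ABL keeps active, are represented by 24 feedback genes, of which 11 fell and none rose (median -0.38). After Il2ra the largest falls were Osm, which encodes oncostatin M, from 272, 332 and 319 to 135, 152 and 135 (-1.11), and Socs1, the JAK inhibitor, from 180, 181 and 164 to 92, 87 and 81 (-0.99). Vector cells had 6 falls and no rise, and 2 of the 24 had a lower late step in WT than in vector cells. With median centring 4 members fell in WT cells. Of 21 immediate early and AP-1 genes 7 fell and none rose, led by Fosl2 (-1.13), Nr4a2 (-0.93) and Maff (-0.83), and vector cells had 5 falls and no rise. Another probe set of Fosl2 had means of 65.3 and 62.7 and changed by -0.06 (adjusted p = 0.904), 5 other probe sets of Nr4a2 did not pass, and Maff did not pass in 8 alternatives (adjusted p up to 0.16).

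In the chemokine and NF-κB feedback lists the members that passed were falls, whereas Tnfaip2, which is in neither list, rose as given above. Of 24 chemokine and cytokine genes 5 fell and none rose, with Ccl5 falling by 2.13 from 24, 35 and 32 to 9, 3 and 3, and Cxcl3 and Cxcl2, which attract neutrophils, falling by 1.13 and 1.08. Cxcl3 did not pass in 14 of the alternatives, with values from -1.43 to -0.37 over all of them and adjusted p up to 0.29. Vector cells had 6 falls and no rise in this list. Cxcl2 had peaked at 38, 62 and 36 at 6 h from 18, 16 and 22 at 0 h. Of 16 NF-κB feedback genes Nfkbia, the inhibitor IκBα, fell by 0.76 from 1647, 1518 and 1359 to 959, 865 and 848, and Tnfaip3 by 0.67, which did not pass in 8 alternatives (adjusted p up to 0.18). Vector cells had 1 rise and 1 fall. The median of this list was -0.09 on the deposited scale and 0.04 after median centring.

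Genes of maturing phagocytes did not rise as a group. Of 15 genes of the later granules and S100 proteins, 6 fell and Padi4 rose by 0.24 (median -0.56), a call lost in 7 alternatives (adjusted p up to 0.39). S100a6 and S100a4, calcium-binding proteins, fell from 2015, 1797 and 1818 to 1186, 1151 and 1077 (-0.72) and from 1507, 1189 and 1238 to 861, 822 and 792 (-0.66). S100a9, a subunit of calprotectin, was dim and fell from 31, 27 and 26 to 9, 15 and 10, a call lost in 5 alternatives (adjusted p up to 0.15). Lcn2, the granule protein lipocalin 2, had peaked at 1829, 1682 and 1687 at 6 h from 575, 608 and 598 at 0 h and held 1545, 1490 and 1505 at 12 h (-0.19, adjusted p = 0.4738). Vector cells had 4 falls and 1 rise in this list.

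Of 26 phagocyte receptor and oxidase genes 2 rose and 5 fell, and in vector cells 1 rose and 5 fell. Fcgr3, an IgG receptor, went from 317, 303 and 291 at 0 h to 737, 712 and 682 at 6 h and back to 295, 285 and 276 at 12 h (-1.31, adjusted p = 1.539e-12). Cxcr2, the receptor for neutrophil chemokines, fell by 1.10, a call lost in 5 alternatives (adjusted p up to 0.11). Ncf4, an NADPH oxidase subunit, rose by 0.50 from 411, 350 and 307 to 520, 508 and 474 and Selplg, a selectin ligand, by 0.45. Of 15 monocyte and macrophage genes 3 fell and none rose, namely Apoe (-1.57), Lgals3 (-1.56) and Cd68 (-0.30), and vector cells had 2 falls. Apoe did not pass in 9 alternatives, with values from -1.90 to -0.50 and adjusted p up to 0.16, and Cd68 in 5. Of 7 macrophage markers, C1qa, C1qb, Mrc1 and Msr1 had signals of at most 20 on every WT array and Csf1r of at most 38. Adgre1 was bright, with means of 931 at 0 h, 1148 at 6 h and 1028 at 12 h. Cd68 had means of 948, 509 and 413 at these times. The summed signal of the 7 markers was 1648 to 1843 at 6 h and 1438 to 1559 at 12 h. Its part in the falls was not tested. None of the 6 lymphoid and 10 fibroblast genes tested passed in either direction at an adjusted p below 0.05 in limma.

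The 2 factors in the title of the study did not pass the test at this stage. Myb had 2134, 2111 and 2254 at 0 h, 2994, 2508 and 2808 at 6 h and 2446, 2342 and 2439 at 12 h (-0.20, SE 0.10, adjusted p = 0.236). Gata2 had 1724, 2009 and 1791 at 0 h, 1026, 1080 and 1044 at 6 h and 1032, 893 and 909 at 12 h (-0.15, SE 0.08, adjusted p = 0.2803). The drop of Gata2 thus lay before 6 h. Vector cells changed by -0.17 for each gene over the same interval. Zfpm1, whose product FOG-1 binds GATA factors, lost its signal early, from 650, 602 and 592 to 105, 134 and 136, and rose by 0.38 afterwards to 149, 169 and 169. Mecom and Etv6 fell by 0.38 and 0.30, and Lmo2, a bridging factor of progenitor complexes, rose by 0.50. In all, 2 of 26 progenitor factor genes rose and 4 fell, and in vector cells 1 rose and 3 fell. The share of rises in WT cells was close to the 8.74% of all genes, and 6.5% of all genes fell. The calls for Zfpm1, Mecom and Etv6 were lost in 9, 7 and 9 alternatives, at adjusted p up to 0.16, 0.47 and 0.66.

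Of 24 genes for C/EBP proteins and myeloid factors 2 rose and 3 fell, and in vector cells 3 rose and 2 fell. Among all genes 8.74% rose and 6.5% fell in WT cells, so the share of rises here was close to that of all genes. Cebpa, for which endogenous and vector-borne transcripts cannot be told apart here, had 580, 653 and 573 at 0 h, 138, 139 and 132 at 6 h and 93, 104 and 92 at 12 h (-0.49, adjusted p = 0.01846). Cebpb, its close relative, fell from 774, 887 and 905 to 615, 606 and 732 (-0.39), and Id1, an inhibitor of bHLH factors, fell by 0.52. The calls for Cebpa and Id1 were lost in 9 and 10 alternatives, at adjusted p up to 0.36 and 0.23, and that for Gfi1 in 7. Gfi1, a repressor needed for granulocyte formation, rose from 274, 308 and 310 to 344, 410 and 404 after a larger early gain from 124, 132 and 125 (0.37, adjusted p = 0.009073). Spi1, Cebpd, Cebpg, Csf3r, Id2, Gata1 and Kit did not pass, with changes between -1.07 for the dim Kit and 0.44 for Csf3r.

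Of 19 genes of the BCL2 family and of p53 targets 8 fell and 2 rose (median -0.25), vector cells had 6 falls and no rise, and 1 member had a higher late step in WT than in vector cells. Bcl2, which blocks apoptosis, fell from 387, 406 and 409 to 250, 213 and 200 (-0.86), while the pro-apoptotic Bbc3 also fell, by 0.45, and the pro-apoptotic Bad and Bak1 rose by 0.46 and 0.40. The calls for Bad and Bak1 were lost in 7 and 6 alternatives. Aen, a p53-induced nuclease gene, came down by 0.56 from an early peak. After median centring 1 member fell and 1 rose.

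Metabolic lists moved in both directions, while among all genes 8.74% rose and 6.5% fell. Of 30 genes for sterol and fatty acid synthesis 7 rose and 3 fell, and 21 of the 30 had been below 0 h at 6 h. More of them rose in each other line, 10 in vector, 20 in K298E and 21 in Δ(177-191) cells. In vector cells 1 fell, and in the mutant lines none did. Srebf1, the regulator of fatty acid synthesis, rose by 0.54 in WT cells. Acaca, acetyl-CoA carboxylase, fell by 0.42, a call lost in 6 alternatives (adjusted p up to 0.28). Of 32 lysosomal genes 8 rose and 4 fell, and in vector cells 3 rose and 1 fell. Gla, α-galactosidase, rose from 290, 273 and 312 to 422, 414 and 444 (0.55) and Sqstm1, an autophagy receptor, fell from 1989, 1736 and 1600 to 1180, 1170 and 1115 (-0.61). Of 23 endoplasmic reticulum chaperone genes 5 rose and none fell, led by Herpud1 (0.82), of which another probe set had means of 182 and 188 and did not pass (0.04, adjusted p = 0.916). Of 21 other chaperone genes 4 rose and none fell, led by Dnajb4 (0.87). In vector cells 1 of the endoplasmic reticulum genes and 4 of the other chaperone genes rose, and none fell. Among 24 genes for nucleotides, folate and polyamines 4 rose and 5 fell, and in vector cells 4 rose and 3 fell. In WT cells Mthfd2 and Shmt2 of mitochondrial folate metabolism rose by 0.61 and 0.59. Srm and Azin1 of polyamine synthesis fell by 0.38 and 0.33. Of 30 interferon response genes 4 rose and 2 fell, among them Stat2 (0.54) and Usp18 (-0.64). The share of falls was close to that of all genes, and in vector cells 3 rose and 3 fell. In the lists not yet described, 1 of 11 mast cell and 2 of 11 erythroid or megakaryocyte genes fell, 1 of 13 eicosanoid, 1 of 16 clock and 1 of 16 estrogen receptor target genes rose while 1, 2 and 4 fell, and none of 4 replication-dependent histone genes passed in limma.

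Part of the late step of WT cells was shared with cells that had no C/EBPα-ER. In vector cells 642 genes rose (5.02%) and 520 fell (4.06%), in K298E cells 731 (5.71%) and 631 (4.93%), and in Δ(177-191) cells 1243 (9.71%) and 1105 (8.63%). Of the changes in vector cells, 443 rises were also rises in WT cells, which is 69% of the vector list and 39.6% of the WT list, and 335 falls were shared, 64.4% and 40.3%. The arrays of the 2 lines are separate. Another 2 genes that rose and 8 that fell in WT cells went the other way in vector cells.

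A direct test found 83 genes whose late step differed between WT and vector cells (0.648%), 22 with the higher (0.172%) and 61 with the lower value (0.477%) in WT cells, or 136 probe sets (0.501%). After median centring 3 and 9 passed the threshold. The genes named are those with a mean signal of at least 50, and 2 dimmer genes on each side had larger differences, up to 1.99 and -2.43. Above vector cells, besides Mpo and Smim4, stood Ccr1, a chemokine receptor, which held 144, 140 and 130 at 6 h and 153, 142 and 163 at 12 h in WT cells while vector cells went from 25, 23 and 22 to 10, 2 and 12 (difference 1.55, adjusted p = 0.001323). Lcn2 was of the same kind, since vector cells fell from 272, 273 and 275 to 113, 119 and 129 (difference 0.97, adjusted p = 0.009108). Sla, an adaptor that dampens antigen receptor signalling, rose in WT cells from 66, 88 and 62 to 177, 101 and 136 and did not pass in vector cells (difference 1.20, adjusted p = 0.0277). Neil3, a DNA glycosylase, had a difference of 1.09 (adjusted p = 0.02119). The calls for Sla and Neil3 were lost in several alternatives, at adjusted p up to 0.79 and 0.42. That for Ccr1 was lost in 2 (adjusted p up to 0.19) and that for Lcn2 in 1 (adjusted p up to 0.45).

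**Figure D4:**
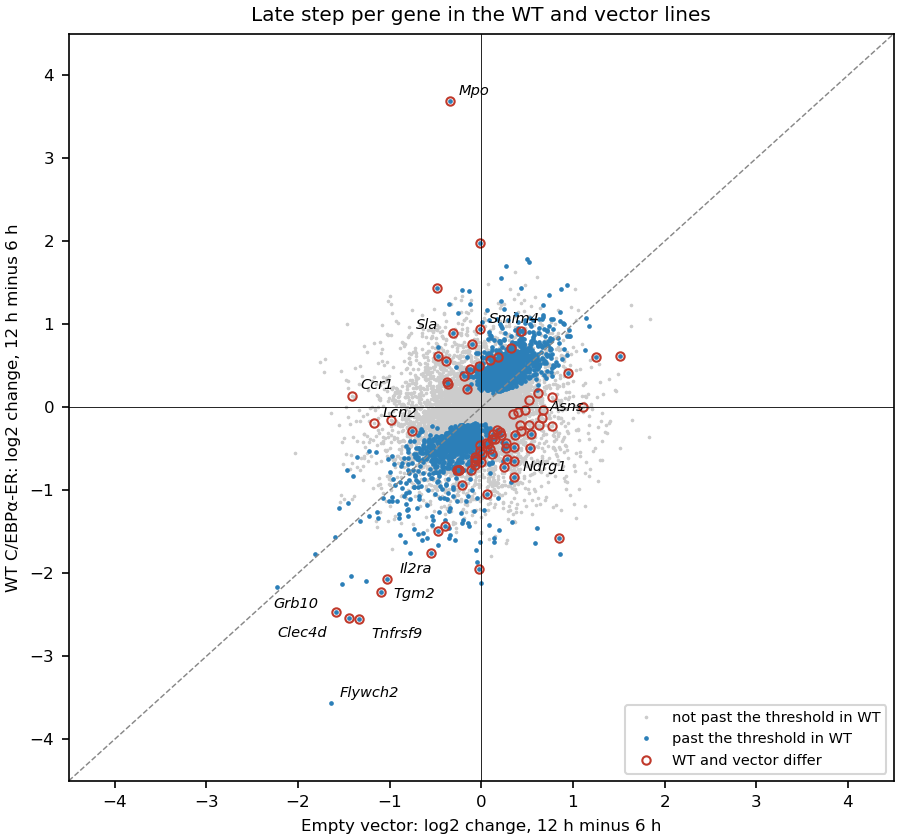
Log2 change from 6 h to 12 h per gene in vector cells (x axis) and in WT cells (y axis) for 12800 genes, in grey where the WT change did not pass and in blue where it did, with red rings on the 83 genes whose late step differed and a dashed line of equal change. Mpo stands alone at the top, and Tnfrsf9, Clec4d, Grb10, Tgm2 and Il2ra on the lower left fell in both lines and further in WT cells.

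Below vector cells the differences were of several kinds. Tnfrsf9, Tgm2, Clec4d, Il2ra, Grb10, Atf5 and Pglyrp2 fell in both lines and further in WT cells, by 0.89 to 1.22 more. Ndrg1, a stress-induced gene that hypoxia raises, went opposite ways. It fell from 404, 323 and 321 to 200, 176 and 201 in WT cells. In vector cells it rose from 258, 264 and 224 to 325, 285 and 352 (difference -1.21, adjusted p = 1.032e-06). Vector cells had 736, 739 and 775 at 0 h, so their rise was a partial return. Glrp1, a glutamine-rich protein gene, stayed at 54 to 61 in WT cells (adjusted p = 0.996). It rose from 52, 43 and 49 to 105, 129 and 89 in vector cells (difference -1.11, adjusted p = 0.00171). Its means at 0 h were 245 in WT and 220 in vector cells, so this rise too was a partial return. The difference for Glrp1 was lost in 2 alternatives, median centring among them (adjusted p up to 0.37). That for Atf5 was lost in 1 (adjusted p up to 0.055). Atf4 and Mthfd2 rose in both lines and less in WT cells.

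Among the gene lists, amino acid supply with the ATF4 response and hypoxia with glycolysis held the most members whose late step differed from vector cells, 9 and 8, while ERK and STAT5 feedback held 2 and 6 other lists held 1 each. Of 28 amino acid genes tested, 9 had a lower late step in WT than in vector cells and none a higher one, against 0.477% and 0.172% of all genes. ATF4 raises amino acid transporters, biosynthetic enzymes and aminoacyl-tRNA synthetases when amino acids run short. In vector cells 14 of the 28 rose and 1 fell (median 0.30), whereas in WT cells 5 rose and 5 fell (median -0.01, or 0.12 after median centring). Members of this and the next list are named by their test against vector cells, a choice made after their values were seen.

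Asns, asparagine synthetase, shows the difference from vector cells. Its signals were 2350, 2033 and 2097 at 0 h and 960, 948 and 901 at 6 h in WT cells and remained at 909, 843 and 825 at 12 h. In vector cells they were 1929, 1885 and 1926 at 0 h and 901, 900 and 837 at 6 h. They came back part of the way to 1367, 1359 and 1446 at 12 h. The lines thus matched at 6 h and no longer overlapped at 12 h (difference -0.78, adjusted p = 1.371e-07). Asns changed by -0.11 in K298E cells (adjusted p = 0.3318 in limma) and by -0.56 in Δ(177-191) cells, so it rose in the vector line alone. Sars, seryl-tRNA synthetase, had 942, 806 and 779 at 6 h and 802, 823 and 832 at 12 h in WT cells against 675, 664 and 657 and then 1089, 1013 and 1090 in vector cells (difference -0.71). The amino acid transporter genes Slc7a5, Slc7a1 and Slc3a2 fell in WT cells, by 0.72, 0.56 and 0.65, and moved by 0.25, 0.12 and -0.07 in vector cells. Slc6a9, a glycine transporter gene, and Psat1 of serine synthesis differed by -0.64 and -0.44.

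Atf4 itself rose in both lines, by 0.41 in WT and 0.95 in vector cells (difference -0.54, adjusted p = 0.002943). Atf5, which ATF4 raises in other settings, fell in both and further in WT cells (difference -1.20, adjusted p = 0.001014). In K298E cells 9 members of the list rose and 2 fell, and in Δ(177-191) cells 2 rose and 9 fell. Slc7a5 fell by 0.52 in K298E and by 0.80 in Δ(177-191) cells, so the vector line was the one in which it rose.

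Of 29 genes of hypoxia and glycolysis tested, 8 had a lower late step in WT than in vector cells and none a higher one. In WT cells 6 fell and 1 rose (median -0.25), in vector cells 10 rose and none fell (median 0.22), in K298E cells 18 rose and 1 fell, and in Δ(177-191) cells 11 rose and 2 fell. Slc2a1, the glucose transporter GLUT1, had 314, 334 and 321 at 0 h and 659, 706 and 743 at 6 h in WT cells. These signals fell to 473, 407 and 460 at 12 h. Vector cells dropped from 791, 855 and 741 at 0 h to 540, 527 and 475 at 6 h. They then came back part of the way, to 639, 603 and 733 at 12 h (difference -1.004, adjusted p = 3.513e-06). Hk2, hexokinase 2, likewise came down from 1045, 1019 and 1076 to 737, 721 and 758 in WT cells and was 472, 454 and 439 and then 497, 477 and 483 in vector cells (difference -0.60). The early peak of both genes in WT cells was thus partly lost by 12 h.

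Bnip3, a mitophagy receptor gene, did not change past the threshold in WT cells (-0.22, adjusted p = 0.112) and rose in the other 3 lines, by 0.78 in vector, 1.87 in K298E and 1.08 in Δ(177-191) cells. Egln3, an oxygen-sensing hydroxylase, changed by -0.22 in WT cells (adjusted p = 0.1364) and rose by 0.52, 0.78 and 1.05 in those lines. In vector cells Bnip3 had means of 1989 at 0 h, 891 at 6 h and 1525 at 12 h. Egln3 had 2052, 969 and 1388 there, so both vector rises were partial returns. Pfkp of glycolysis fell by 0.44 in WT cells and rose by 0.27 in vector, 0.50 in K298E and 0.40 in Δ(177-191) cells. P4ha1, a collagen hydroxylase gene, fell by 0.62 in WT cells, and Pdk1, which closes the entry of pyruvate into the citric acid cycle, had a difference from vector cells of -0.72. After median centring 2 of the 8 and 2 of the 9 of the amino acid list still passed, and leaving out any one array of the WT or vector line at 6 h or 12 h left 7 to 8 and 6 to 10.

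**Figure D5:**
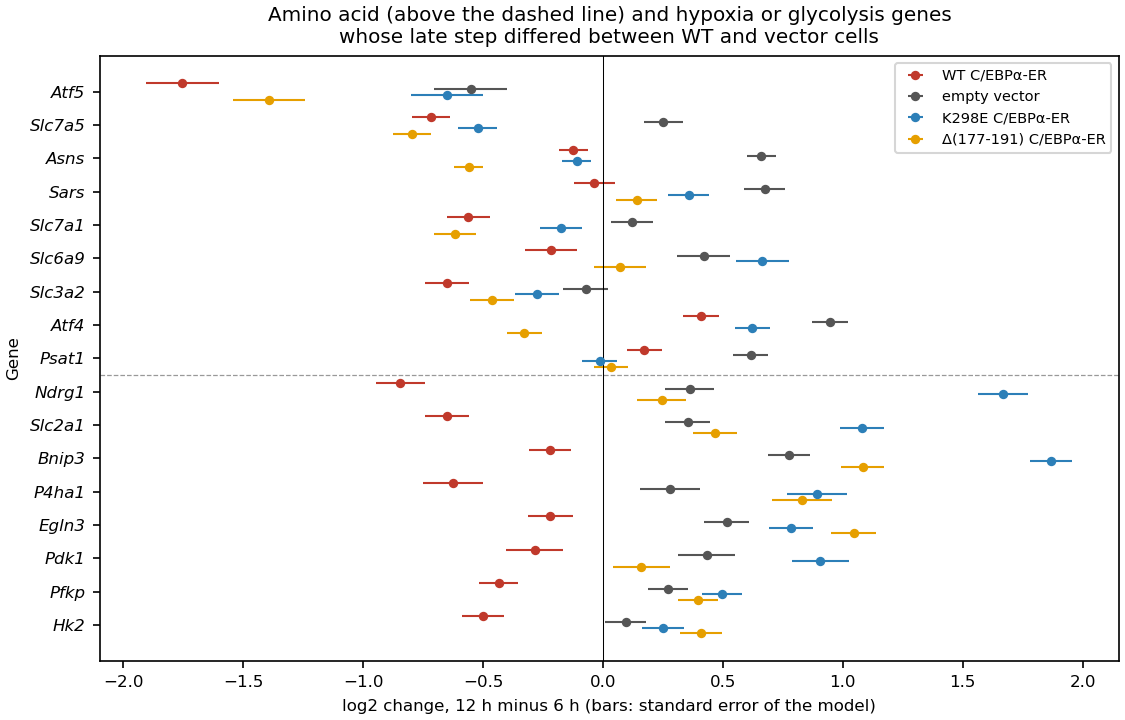
Log2 change from 6 h to 12 h in each of the 4 lines (bars, SE of the model) for the 9 amino acid genes and 8 hypoxia or glycolysis genes whose late step differed between WT and vector cells. WT points lie left of the vector points for all 17 genes, and for the 8 hypoxia or glycolysis genes left of the points of the other 3 lines.

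Against the mutant lines more genes differed. The late step of WT cells differed from that of K298E cells in 384 genes (3% of those tested), 137 higher (1.07%) and 247 lower (1.93%), and from that of Δ(177-191) cells in 1085 (8.48%), 509 higher (3.98%) and 576 lower (4.5%). In probe sets these were 601 (2.21%) and 1758 (6.47%). Grb10 and Tnfrsf9 changed by only -0.46 and -0.20 in K298E cells, less than in WT cells (differences -2.01 and -2.35, adjusted p = 2.108e-15 and 1.834e-12). Tgm2 rose by 1.58 in Δ(177-191) cells while it fell in WT cells (difference -3.80, adjusted p = 1.34e-23). Of the factors above, Myb fell by 0.68 in Δ(177-191) cells, from 233, 244 and 299 at 6 h to 151, 184 and 146 at 12 h (difference 0.48, adjusted p = 0.02871). The Myb signals of that line were already lower at 0 h, at 762, 735 and 807, against 1878 to 2352 in the other 3 lines.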

How the data were processed

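Per the submitters' processing notes the authors made MAS5 signals from each array, and the deposited intensity values are those signals. The version and the target value are not given in the sources used here, but the trimmed mean of every array was 100.0. The values were not normalized again. Log2(signal + 3) of the deposited intensity was fitted with limma 3.58.1 in R 4.3.3 as 16 group means over 48 arrays, with a trended prior and Benjamini-Hochberg adjustment over 27167 probe sets whose mean exceeded the median of all log2 values in at least 1 group. Of 45101 probe sets, 64 controls were left out, 34945 had 1 gene symbol, 932 had several and 9160 had none, and the brightest tested probe set stands for a gene. The fit was tested on simulated data.

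Genes were named by size. Among those with a mean signal of at least 50 and groups that do not overlap, the 15 largest rises and falls were named. The same was done for the 5 largest rises and falls from 6 h to 12 h within each class of genes set by 9 h against 0 h. Further genes were the 5 largest differences from vector cells on each side (signal of at least 50 alone). Up to 3 rises and 3 falls within each list (no signal minimum) and a set of factors were named as well. Smim4 and the other genes that changed from 9 h to 12 h, the 17 list members that differed from vector cells and the other primary granule genes were named after their values were seen. The members and lists were chosen with earlier results of these data known. P-values rest on 3 separate experiments per the labels. Arrays give no counts, so their number limits the precision. Alternatives were the pseudocount, the filter, the scaling, array weights, the arrays fitted, other probe sets and leaving out arrays.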

Additional observations from a re-analysis of the deposited data

Results flagged for a closer look

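The late step, as log2 change from 6 h to 12 h, differed between WT and vector cells by the interaction term in limma for genes named above, of which 19 are given here. It was higher in WT cells for Mpo by 4.03, Ccr1 by 1.55, Sla by 1.20, Neil3 by 1.09, Lcn2 by 0.97 and Smim4 by 0.95. The difference was -1.22 for Tnfrsf9, -1.21 for Ndrg1, -1.20 for Atf5, -1.13 for Tgm2, -1.11 for Glrp1, -1.09 for Clec4d, -1.05 for Il2ra, -1.03 for Pglyrp2 and -0.89 for Grb10. Among list members it was -1.004 for Slc2a1, -0.97 for Slc7a5, -0.90 for P4ha1 and -0.64 for Mthfd2, a gene of mitochondrial folate metabolism that rose in both lines, by 0.61 in WT and 1.25 in vector cells.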

How the results depend on the processing

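Centring each array on its median left 1078 probe sets higher and 225 lower at 12 h than at 6 h, and 24, 66 and 353 whose late step differed from vector, K298E and Δ(177-191) cells. By direction at 9 h it left 206 continuing rises, 85 continuing falls, 49 returning rises, 9 returning falls and 36 late falls. Rises made up 57.4% of the gene calls on the deposited scale, 84.1% after median centring and 55% after quantile normalization. With the earlier direction from 6 h, 102 rises and 185 falls continued and 597 rises and 331 falls returned, a comparison that shares the 6 h arrays. Fitting the compared arrays alone, which are fewer, gave 1144 probe sets higher and 344 and 1082 that differed from K298E and Δ(177-191) cells. Array weights gave 219 that differed from vector cells. Without the brightest WT arrays at 6 h and 9 h 110 returning rises were found. The cause was not tested for the scaling and the weights.

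Leaving out 1 array, or all arrays that share a replicate number, gave 826 to 1542 probe sets higher and 696 to 1190 lower. It gave 35 to 133 that differed from vector cells, 164 to 567 from K298E cells and 653 to 1620 from Δ(177-191) cells. Continuing rises ranged from 151 to 402 and falls from 186 to 340, returning rises from 83 to 175 and falls from 54 to 151, and late rises from 289 to 595 and falls from 181 to 362. Without the first WT array at 6 h 211 late falls were found, and without the first vector array at 12 h 90 probe sets differed from vector cells.

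With the replicate number as a block 1766 probe sets were higher and 1444 lower, and 144, 637 and 1819 differed from the other lines. Among the named genes the call for Gadd45a was lost with the block (0.48, adjusted p = 0.0503) and no other. The numbers are not known to pair the samples, since the deviations of same-numbered WT arrays at 6 h and 12 h correlated by 0.18, -0.02 and 0.30.

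Of 149 named genes past the threshold, 1237 of 1338 values under other settings and 1200 of 1490 with an array left out kept direction and call, and none of these changed direction. Other probe sets of a gene kept both in 60 of 137 values and turned in 16. The turned values were 0.0081 for Acaca, -0.13 for Cmpk2, -0.22 for Fads1, -0.034 for Fkbp4, -0.15 for Hspa4l, -0.028 for Lta4h, -0.19 for Neil3, 0.078 for Nr1d2, 0.49 for Nr4a2, 0.25 for Pspc1, -0.36 for Shmt2, -0.094 for Siah2, -0.22 for Sla, -0.020 for Tcf3, -0.47 for Tnfaip2 and 0.20 for Tnfrsf9. The cause was not tested.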
